A study of Mus musculus with 49 samples.

Results

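The gasdermin C family of the mouse consists of the protein-coding genes Gsdmc, Gsdmc2, Gsdmc3 and Gsdmc4. These 4 genes were taken by symbol from a table of read counts for 24062 genes in 25 RNA-seq libraries of small-intestinal crypt cells, and all 4 were among the 14837 genes that passed a filter on low counts. They were chosen with their levels in these same libraries known. Their levels and differences are therefore given as a description without a test, and tests are given for other genes. The lists of those other genes were also chosen with earlier results of these data known, so their p-values are not free of that choice.

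Gasdermins are pore-forming proteins. A protease, most often a caspase, cuts the protein, and the freed amino-terminal part inserts into the plasma membrane, where its pores release alarmins and can burst the cell, while the ESCRT-III machinery can shed the damaged membrane. In the intestine, gasdermin C is an epithelial gasdermin that is known to be induced by type 2 cytokines, which act through the interleukin-4 receptor and Stat6 during worm infection.

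The libraries came from crypts of the proximal small intestine of adult B6;129 mice, whose villi had been scraped off, and fall into 12 groups with 1 to 3 biological replicates. Of 49 samples, the other 24 measured chromatin and were not analysed here. Unsorted crypts made up 3 groups. Enterocyte progenitors (n = 2) were crypts of Atoh1 F/F; Villin-CRE mice given 1 mg tamoxifen on 5 days and killed 3 weeks later, so that the secretory lineage factor Atoh1 was lost. The DBZ secretory progenitors (n = 2) were crypts of Atoh1 F/F mice, with no Cre named, that received the Notch inhibitor DBZ at 48 mg/kg at the start and at 12 h and were killed at 38 h. The Rbpj-deleted secretory progenitors (n = 2) were crypts of Rbpj F/F; Villin-CRE mice on day 3 of tamoxifen, 2 mg at each injection for 2 days, in which Notch signalling loses its nuclear effector. In all 3 groups the label names a lineage, while the material was whole crypts that still hold other cells.

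The other groups were sorted. Lgr5-GFP-Cre stem cells (n = 3) were the bright GFP cells of Lgr5 EGFP-IRES-CRE-ERT2 mice, Lgr5-GFP-DTR cells (n = 2) came from Lgr5 EGFP-DTR mice, and Bmi1-GFP cells (n = 3) from Bmi1 GFP/+ mice. One further Bmi1-GFP library (n = 1) was made 36 h after whole-body radiation of 10 Gy. Wild-type mice gave enteroendocrine cells (n = 2, CD24 high and UEA lectin negative), Paneth cells (n = 2, CD24 high and UEA lectin high), control CD274+CD69+ cells (n = 2), CD274+CD69+ cells 1 day after the last of 4 injections of diphtheria toxin at 50 µg/kg (n = 2, labelled wild type) and a goblet group (n = 2, sorted with the same antibodies 115 h after DBZ). Libraries held between 11179085 and 27371108 counted reads. Atoh1 stood at 1.49 and 1.74 CPM in the enterocyte progenitors and at 18.2 CPM or more in every other library. The goblet libraries held 69630 and 113400 CPM of 8 goblet markers and also 84090 and 73400 CPM of 5 enterocyte markers, and the Lgr5-GFP-DTR libraries held 205900 and 149700 CPM of 5 Paneth markers, whereas the Lgr5-GFP-Cre libraries held between 39430 and 45810. The control CD274+CD69+ pair, made with 2 different kits, stands apart from all other replicate pairs. Its counts differed by a chi-square of 4.23 per degree of freedom over genes, above sampling noise. Those of the other pairs differed by 27.8 to 193.7. The SD of the control pair may therefore understate the spread between mice.

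The 4 genes lie side by side on chromosome 15 of the mouse (GRCm38.p6, RefSeq coordinates). Gsdmc spans positions 63775971 to 63808739, Gsdmc2 63824328 to 63845193, Gsdmc3 63857605 to 63878579 and Gsdmc4 63891140 to 63912319, so that the family fits within 136.3 kb. The annotation places 4 transcribed pseudogenes between and beside them, 1700065I16Rik, Gsdmcl1, Gsdmcl2 and Gsdmcl-ps. One RefSeq promoter entry matched the 4 members, that of Gsdmc3. The 229 bases of it that lie before the annotated start of the gene are shown because the members vary together and this stretch leads into one of them. It lies at chr15:63878580-63878808 on the minus strand and is written 5′ to 3′ with the letters TATAA in capitals.

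Gsdmc3 promoter: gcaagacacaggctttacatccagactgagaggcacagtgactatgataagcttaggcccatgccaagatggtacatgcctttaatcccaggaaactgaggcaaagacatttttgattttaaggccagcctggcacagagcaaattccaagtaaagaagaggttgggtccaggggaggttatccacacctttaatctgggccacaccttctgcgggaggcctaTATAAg

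The letters TATAA, searched on both strands, occurred once, with the first base 6 bp before the annotated start of the gene, and 21.8% of 32817 RefSeq promoter entries hold them in a window of the same length. The GATA letters GATAA occurred at 2 places, 184 and 51 bp before that start, once on each strand, and 21.4% of entries hold them. The letters TTC and GAA with 4 bases between them (a Stat6-type palindrome, in 5.38% of entries), CAAAGTCCA (an HNF4 element, 0.344%), TTTAT (a CDX core, 35.8%), TGGGAA (an Rbpj core, 20% of entries) and CAGCTG (an E-box, 11.8%) were not found in this window. These matches describe the sequence and were searched for after it had been seen.

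Levels are given as CPM, the reads of a gene for every 1000000 reads of the library, scaled between libraries with the TMM method; the reads of a gene depend on its length, so levels are compared between libraries and not between genes. The enterocyte progenitors held the highest level of each member. Gsdmc4 stood at 2863 and 2130 CPM in their 2 libraries, Gsdmc2 at 1943 and 1173, Gsdmc3 at 500.5 and 314.1 and Gsdmc at 9.60 and 7.13. Together the 4 genes reached 5316 and 3624 CPM there, 0.644% and 0.434% of all counted reads. In the Lgr5-GFP-Cre stem cells the sum was 17.3, 4.55 and 5.53 CPM. Both enterocyte progenitor libraries lay above every library of another group. The lower of them was 2.34 times the highest library elsewhere, replicate 2 of the Rbpj-deleted crypts. That ratio is smaller than the ratio between replicates within several groups, given below.

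**Figure D1:**
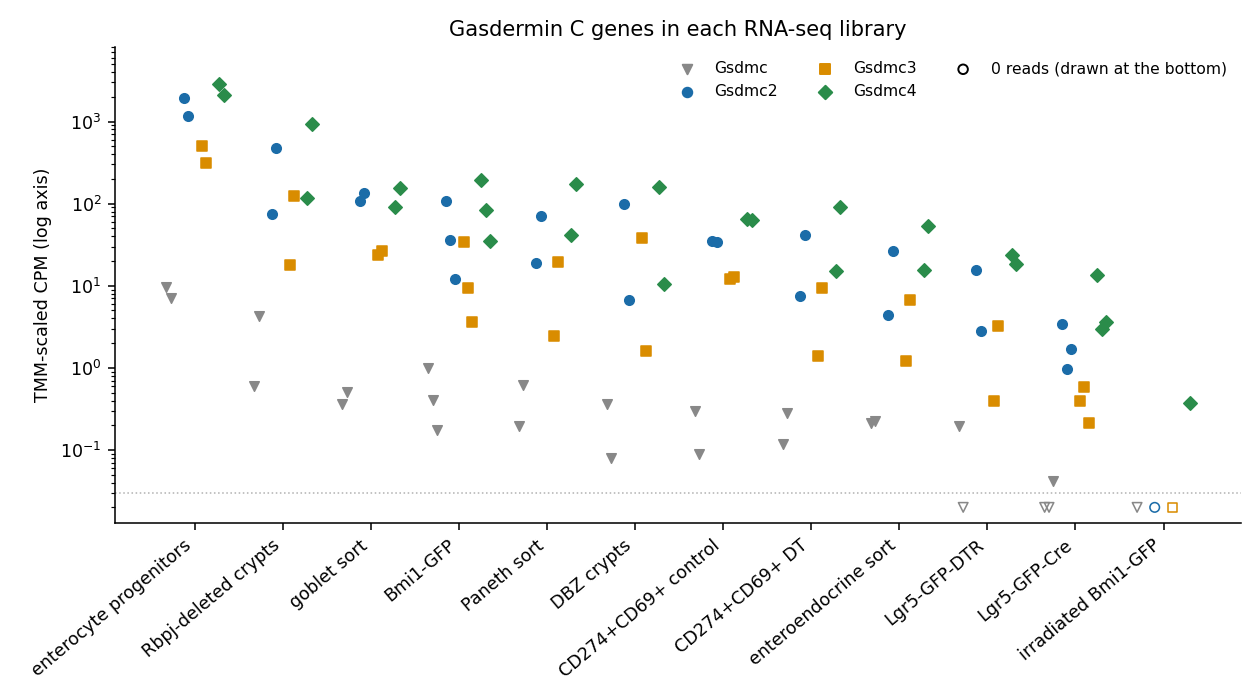
TMM-scaled CPM (log axis) of Gsdmc, Gsdmc2, Gsdmc3 and Gsdmc4, one point per library, with the groups ordered by the mean of the summed genes. Gsdmc4 stands at 2863 and 2130 CPM in the enterocyte progenitors, between 2.99 and 13.5 CPM in the Lgr5-GFP-Cre cells and at 0.370 CPM in the irradiated library, where the other 3 genes have 0 reads (open symbols at the bottom).

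Below the enterocyte progenitors (mean 4470 ± 1196 CPM, SD, n = 2), the summed level was 878.1 ± 945.7 in the Rbpj-deleted crypts, 271.4 ± 69.4 in the goblet sort, 171 ± 145.5 in Bmi1-GFP cells (n = 3), 163.6 ± 142.5 in the Paneth sort and 157.8 ± 196.4 in the DBZ crypts. It was 111.5 ± 0.768 in control CD274+CD69+ cells, 83.1 ± 83.2 after diphtheria toxin, 54.1 ± 46.5 in the enteroendocrine sort, 32.2 ± 10.8 in Lgr5-GFP-DTR cells, 9.14 ± 7.11 in Lgr5-GFP-Cre cells (n = 3) and 0.370 CPM in the irradiated library. Neighbours in this order overlapped between libraries except at 3 places: enterocyte progenitors above Rbpj-deleted crypts, Lgr5-GFP-DTR above Lgr5-GFP-Cre, and Lgr5-GFP-Cre above the irradiated library. From the Rbpj-deleted crypts down to the Lgr5-GFP-DTR cells, each group overlapped with the next. In bulk libraries of this kind, a lower share of expressing cells and less RNA in each such cell cannot be told apart.

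Replicates of one group often differed in the family more than in most genes. The 2 DBZ libraries had summed levels of 296.7 and 18.9 CPM, a ratio of 15.7, while the median gene averaging at least 20 CPM differed 1.17-fold and 2 of 7042 such genes (members left out) differed as far. The Rbpj-deleted crypts had 209.3 and 1547 CPM, a ratio of 7.39 that 0.360% of genes reached. Ratios of 5.84 in the diphtheria toxin group, 4.21 in the Paneth sort and 4.11 in the enteroendocrine sort were reached by 0.0977%, 0.997% and 0.812% of genes. By contrast, the control CD274+CD69+ pair stood at 112.1 and 111 CPM. A mean over such a pair rests largely on one library, and the values of both are given below.

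The levels of the members, which are the values they were chosen on, were set side by side. Over the 12 group means on a log2 scale, Gsdmc2 and Gsdmc4 had a Pearson r of 0.99, Gsdmc2 and Gsdmc3 of 0.99, Gsdmc3 and Gsdmc4 of 0.98, and Gsdmc had values of 0.88 to 0.92 with the others; these points share libraries and, where reads map to more than one copy, reads. Within the 9 groups of 2 libraries, Gsdmc, Gsdmc2 and Gsdmc4 were each highest in the library where the sum of the other 3 members was highest in 9 of 9 groups, and Gsdmc3 in 7 of 9, with the control CD274+CD69+ and Lgr5-GFP-DTR pairs as exceptions. Gsdmc3 and Gsdmc2 in the Lgr5-GFP-DTR pair ran opposite ways, at 0.395 and 3.23 CPM against 15.6 and 2.83 CPM.

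The share of the family's reads that each gene took was compared over the 17 libraries with 500 or more of them. Gsdmc4 took 41.3% to 68.7% (median 58.8%), Gsdmc2 23.7% to 47.8% (median 31.1%), Gsdmc3 3.94% to 12.8% (median 8.20%) and Gsdmc 0.0812% to 0.486% (median 0.257%). The goblet sort stood at one end of these ranges. Gsdmc2 made up 47.8% of the family reads in replicate 1 (95% exact binomial interval 45.8% to 49.8%) and 42.6% in replicate 2 (41.0% to 44.2%), while the other 15 libraries lay between 23.7% and 36.5%. Gsdmc4 made up 41.3% and 49.1% in the goblet sort and 53.9% to 68.7% in the other 15. The intervals cover counting error only. How the authors counted reads that fit more than one of these closely related genes is not given in the sources used here, so the split between members is less certain than their sum.

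**Figure D2:**
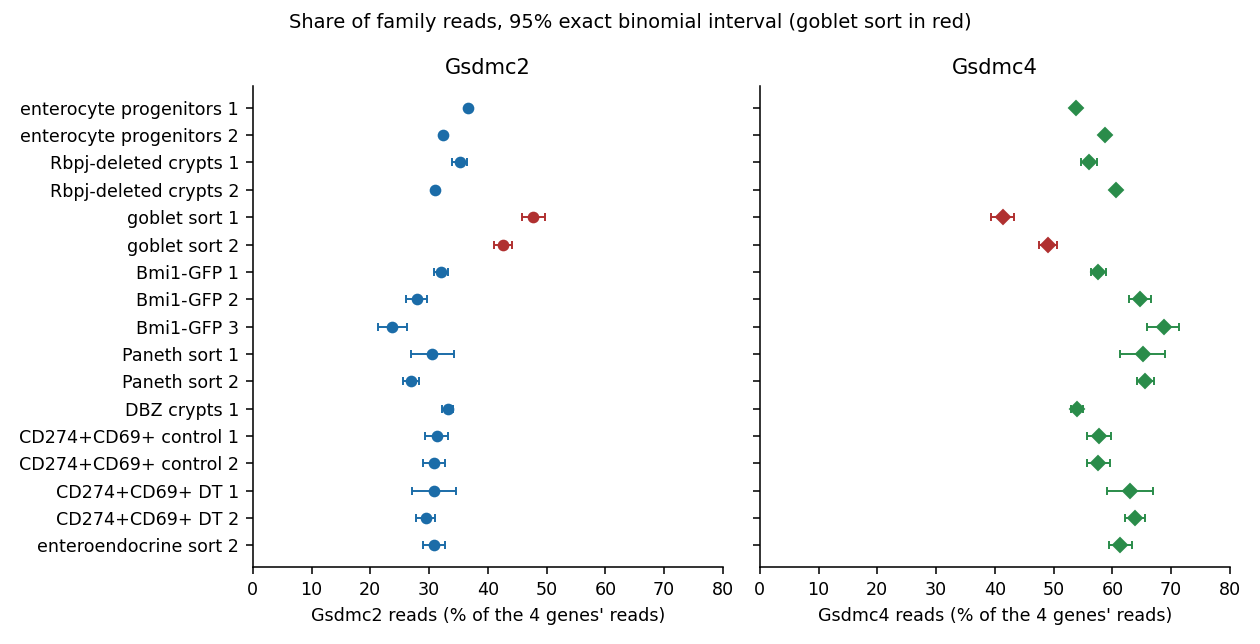
Share of the 4 genes' reads that mapped to Gsdmc2 (left) and Gsdmc4 (right) in each of the 17 libraries with 500 or more family reads, in percent, with 95% exact binomial intervals as bars. The goblet libraries (red) stand at 47.8% and 42.6% for Gsdmc2 and at 41.3% and 49.1% for Gsdmc4, outside the range of the other 15 libraries for both genes.

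Of the neighbouring pseudogenes, Gsdmcl-ps reached 17.8 and 10.8 CPM in the enterocyte progenitors, 1.00 and 1.86 CPM in the goblet sort and 0.190 and 2.01 CPM in the Rbpj-deleted crypts. It was at 0 reads in every Lgr5-GFP-Cre, enteroendocrine and Lgr5-GFP-DTR library. In the enterocyte progenitors Gsdmcl-ps held 465 and 353 reads, beside 139038 and 118882 reads of the family. Whether some of its reads also fit a member was not tested. The nearest protein-coding neighbours with reads outside the cluster were Fam49b, Asap1 and Myc, while A1bg had 0 reads in every library. Fam49b, 16.77 kb beyond the cluster toward higher coordinates, stood at 88.5 ± 3.82 CPM (SD, n = 2) in the enterocyte progenitors, 44.5 ± 1.88 (n = 3) in Lgr5-GFP-Cre cells and 62.6 CPM in the irradiated library. The highest group mean of Fam49b was 115.7 ± 1.92 CPM, in the enteroendocrine sort, and that of Asap1 109.6 ± 5.47, in the goblet sort. Asap1 also stood at 30.4 CPM in the irradiated library against 10.8 ± 2.49 in Bmi1-GFP cells. In enterocyte progenitors against Lgr5-GFP-Cre cells, 22.2% of all tested genes were called higher and 17.2% lower. Fam49b was higher there by 1.02 on the log2 scale (SE 0.20, edgeR quasi-likelihood adjusted p = 0.000635). Asap1, 174.5 kb beyond the cluster on the same side, was higher by 1.31 (SE 0.36, edgeR adjusted p = 0.00826, and 0.0875 without enterocyte progenitor replicate 1). Myc, a growth-promoting transcription factor 1786 kb from the cluster toward lower coordinates, stood at 154.8 ± 33.4 CPM in the enterocyte progenitors and 371.1 ± 41.5 in Lgr5-GFP-Cre cells, lower by 1.24 (SE 0.30, edgeR adjusted p = 0.00355, and 0.0632 without enterocyte progenitor replicate 1).

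The comparison of enterocyte progenitors with Lgr5-GFP-Cre stem cells sets Atoh1-deleted crypts, labelled as absorptive progenitors, against sorted stem cells. The summed family was 489-fold higher in the progenitors, with 764-fold for Gsdmc2, 1029-fold for Gsdmc3 and 373-fold for Gsdmc4. Without Lgr5-GFP-Cre replicate 1, the stem cell library with the highest sum, the folds were 887 for the sum, 1169 for Gsdmc2 and 759 for Gsdmc4. Gsdmc had 485 reads in the progenitors and 1 read over the 3 stem cell libraries, and no fold is given for it. All 4 genes had libraries that did not overlap, as did 33.5% of all genes tested in the same direction; since the genes were chosen on these values, nothing is read from this. The progenitors were unsorted crypts of tamoxifen-treated mice that had lost Atoh1. The stem cells were sorted from mice of another genotype with no treatment listed. Cell type, genotype, treatment and preparation therefore cannot be told apart. Beside the family, 5 mast cell markers summed to 171.6 and 91.5 CPM in the progenitors and 12.2 to 23.8 in the stem cells, 5 tuft cell markers to 869.1 and 424.4 against 12.7 to 17.6, and 6 T cell markers to 254.2 and 189.3 against 18.7 to 33.7. Markers of Paneth cells summed to 49.9 and 111.1 CPM in the progenitors and those of goblet cells to 36.6 and 75.6. The part of these other cells in the family's level was not tested.

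In this comparison 3290 genes (22.2% of those tested) were called higher and 2554 (17.2%) lower at an edgeR adjusted p below 0.05, with a median difference of 0.00 over all genes. Among genes that act on or around gasdermins, caspases were called higher for 2 and lower for 2 of 10, with a median of 0.03. Casp4, the inflammatory caspase that cuts Gsdmd, fell by 1.82 (SE 0.47, adjusted p = 0.00541, and 0.0592 without enterocyte progenitor replicate 1). The inflammasome and alarmin list had 11 higher and 2 lower of 19, with a median of 1.35. Naip1, Naip2 and Naip6, sensors of bacterial flagellin and secretion systems, rose by 1.97, 1.23 and 1.96; the Naip genes are themselves close copies, so their single values are uncertain. Without enterocyte progenitor replicate 1 the list had 5 higher. ESCRT-III membrane repair genes had 6 higher and 0 lower of 13, with a median of 0.24 and 3 higher without that same library. Vps4b, the ATPase that takes ESCRT-III filaments apart, stood at 183.7 ± 12.0 against 90.4 ± 12.4 CPM.

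Other gasdermins did not move with the family. Gsdmd, the widely expressed gasdermin, stood at 84.8 and 62.1 CPM in the enterocyte progenitors and between 61.7 and 102.2 CPM in the stem cells, with overlapping libraries (log2 difference -0.13, SE 0.39, adjusted p = 0.819). Gsdma2 was the 1 of 4 tested that was called, lower by 2.62 (SE 0.60, adjusted p = 0.00220) at levels of 0.248 against 1.57 CPM.

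The type 2 cytokine list had 6 of 11 higher and 0 lower, with a median of 2.22. The count was 4 without enterocyte progenitor replicate 1. Tuft and T cell markers were also higher in the progenitors, and the part of these cells in the list was not tested. Il13ra1, a chain of the receptor for interleukins 4 and 13, stood at 222.4 ± 52.0 CPM against 36.2 ± 1.10, a rise of 2.64 (SE 0.37, adjusted p = 3.89e-05). Jak2, a kinase of cytokine receptors, rose by 2.28 (SE 0.28, adjusted p = 9.42e-06), and Il2rg, the common gamma chain, by 3.78 (SE 0.75, adjusted p = 0.000759). Stat6, the factor that carries the type 2 signal to the nucleus, had 197.2 ± 3.39 against 169.3 ± 21.9 CPM (log2 difference 0.25, SE 0.14, adjusted p = 0.156). Genes known to respond in type 2 immunity of the gut had 5 higher and 4 lower of 10. Among the 5 were Mcpt1 and Mcpt2, proteases of mucosal mast cells, whose markers were also higher here; without them 3 were higher and 4 lower of 8. Pla2g4c, a cytosolic phospholipase A2, rose by 12.23 (SE 1.97, adjusted p = 0.000136), from 0.876 ± 0.487 CPM to 4058 ± 1768. Clca3 (the older symbol of Clca1, a goblet cell product) and Ang4 (an antimicrobial ribonuclease of Paneth and goblet cells) fell by 5.72 and 8.34.

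Enterocyte genes were called higher for 9 and lower for 0 of 20, with a median of 1.08, and 5 were higher without enterocyte progenitor replicate 1. Sis, the brush-border sucrase-isomaltase, rose by 3.53 (SE 0.52, adjusted p = 5.79e-05), while the abundant lipoprotein gene Apoa4 had 2064 ± 705.2 against 1001 ± 465.6 CPM (adjusted p = 0.185). Villus tip genes had 5 higher and 0 lower of 9, with a median of 2.90, among them Nt5e by 5.68, Enpp3 by 3.93 and Ada by 3.26, all enzymes of nucleotide handling. Villus base genes had 1 higher and 3 lower of 8, with Reg1, a regenerating islet-derived lectin, lower by 4.73 (SE 0.77, adjusted p = 0.000145). Of 16 transcription factors of absorptive cells, 3 were higher and 2 lower. Hnf4g, an enterocyte nuclear receptor, rose by 2.50, and Hes1, the repressor that Notch induces, fell by 2.10.

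**Figure D3:**
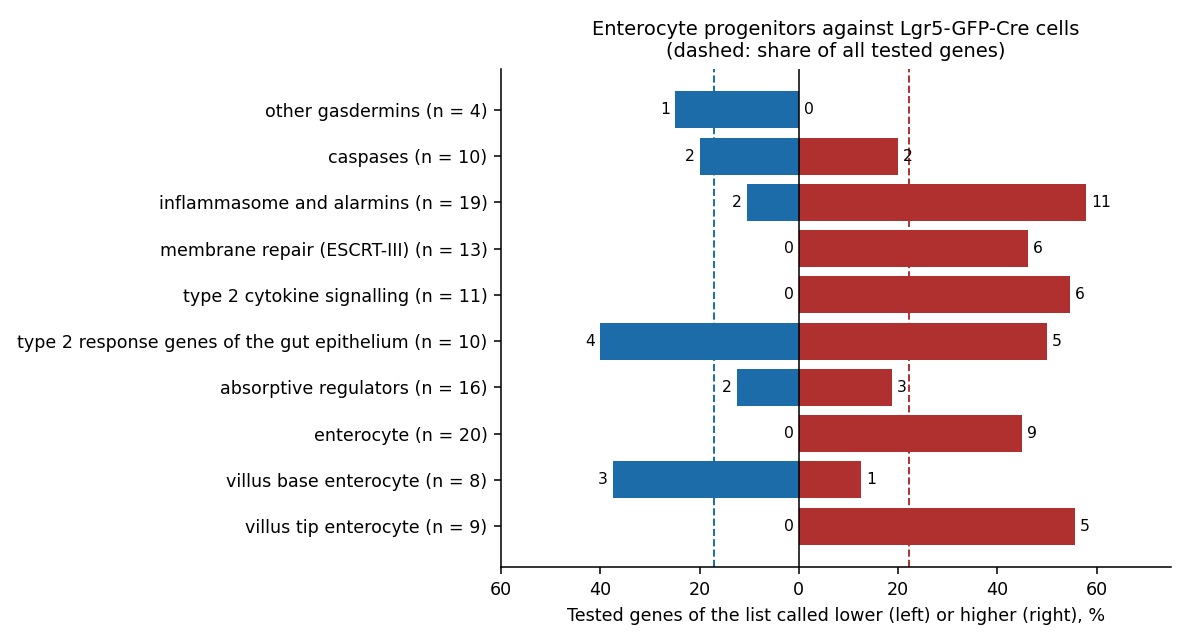
Share of the tested genes of each list (percent, with the number of genes printed at each bar) that was called higher (right) or lower (left) in enterocyte progenitors against Lgr5-GFP-Cre cells at an edgeR adjusted p below 0.05. The dashed lines give the shares over all tested genes, 22.2% higher and 17.2% lower; type 2 cytokine genes had 6 of 11 higher and caspases 2 of 10.

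The DBZ and Rbpj-deleted crypts were compared with the enterocyte progenitors to set secretory against absorptive progenitors. Both comparisons share the enterocyte progenitor libraries. Genotype and treatment also differ between these groups, so lineage cannot be told apart from them. In the DBZ crypts Gsdmc4 stood at 160.1 and 10.4 CPM, Gsdmc2 at 98.3 and 6.79, Gsdmc3 at 37.9 and 1.62 and Gsdmc at 0.360 and 0.0808. Replicate 1 was high for each of them, and both libraries lay below both enterocyte progenitor libraries. The summed family was 28.3-fold lower in the mean, 236.3-fold without DBZ replicate 1 and 15.1-fold without DBZ replicate 2. The libraries of all 4 genes did not overlap, as did those of 20.4% of tested genes in that direction. Beside this, the DBZ library with the higher family level had the lower sum of the 20 enterocyte genes, 5806 against 23340 CPM, and the higher sum of 6 stem cell markers, 1418 against 238.9 CPM.

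Few genes were called in this comparison, 280 (1.89%) higher and 85 (0.573%) lower. No member of the caspase, inflammasome, ESCRT-III, type 2 cytokine or absorptive factor list was called by edgeR. At an unadjusted p below 0.05 these lists had 0, 1, 0, 1 and 2 members lower and none higher, beside 5.48% of all genes lower and 6.32% higher, and DESeq2 called 0 of each. Il13ra1 stood at 195.6 ± 69.8 against 222.4 ± 52.0 CPM (log2 difference -0.23, SE 0.41, adjusted p = 0.957). Dfna5 (now Gsdme), another pore-forming gasdermin, was at 31.3 and 40.3 CPM against 8.76 and 13.5 and was called higher by 1.65 (SE 0.32, adjusted p = 0.00576; 0.166 without enterocyte progenitor replicate 1 and 0.0763 without DBZ replicate 2). The secretory products Clca3 and Ang4 were higher by 8.99 and 7.50. Pla2g4c stood at 21.7 and 2.34 CPM in the DBZ crypts, highest in the same library as the family.

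In the Rbpj-deleted crypts Gsdmc4 stood at 117.3 and 938.1 CPM, Gsdmc2 at 73.7 and 480.5, Gsdmc3 at 17.7 and 123.9 and Gsdmc at 0.607 and 4.31, each highest in replicate 2 and each below both enterocyte progenitor libraries. The summed family was 5.09-fold lower, 2.89-fold without Rbpj-deleted replicate 1 and 21.3-fold without replicate 2. Libraries did not overlap for 36% of tested genes in that direction, and for all 4 members. Both Rbpj-deleted libraries were made with the TruSeq kit and both enterocyte progenitor libraries with SMART-Seq v4, so kit and group cannot be told apart. Here 2245 genes (15.1%) were called higher and 1934 (13%) lower. Pla2g4c had 4.55 and 700.3 CPM, again highest in the library with the higher family level, and missed the threshold against the enterocyte progenitors (log2 difference -3.54, SE 1.60, adjusted p = 0.110, and 0.00978 without Rbpj-deleted replicate 2). No type 2 cytokine gene was called by edgeR, 2 of 11 were lower at an unadjusted p below 0.05 (18.8% of all genes), and DESeq2 called 1 lower. Of the caspases 2 of 10 were higher and 1 lower, and without enterocyte progenitor replicate 2 none was higher. Inflammasome genes had 6 of 19 higher and 2 lower, with Naip2 higher by 1.66 (SE 0.22, adjusted p = 2.18e-05) and Ninj1, which ruptures the plasma membrane after gasdermin pores form, lower by 1.47 (SE 0.21, adjusted p = 4.40e-05).

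Sorted secretory cells and Bmi1-GFP cells held more gasdermin C RNA than Lgr5-GFP-Cre stem cells, with wide spread. In Bmi1-GFP cells, a mixed crypt population, Gsdmc4 stood at 191.5, 84.1 and 34.6 CPM, Gsdmc2 at 106.4, 36.3 and 12.0, Gsdmc3 at 33.7, 9.26 and 3.65 and Gsdmc at 0.988, 0.403 and 0.176. The order of the 3 libraries was the same for each gene, and all lay above the stem cells for Gsdmc2, Gsdmc3 and Gsdmc4. In the Paneth sort Gsdmc4 stood at 40.9 and 173.4 CPM and Gsdmc2 at 19.2 and 71.0, and in the enteroendocrine sort Gsdmc4 stood at 15.3 and 53.3 CPM and Gsdmc2 at 4.38 and 26.8. The fold of the summed means over the stem cells was 18.7 for Bmi1-GFP, 17.9 for Paneth and 5.92 for enteroendocrine cells. These folds rest on single libraries. Without Lgr5-GFP-Cre replicate 1 they were 33.9, 32.5 and 10.7. The Bmi1-GFP fold was 9.88 without Bmi1-GFP replicate 1, the Paneth fold 28.9 without replicate 1 and 6.87 without replicate 2, and the enteroendocrine fold 9.52 without replicate 1 and 2.32 without replicate 2. For all 4 genes the libraries did not overlap in each of these comparisons, as was so for 32.7%, 28.1% and 32.4% of all tested genes. Tuft markers were highest in the same library as the family in both sorts, at 46.9 and 758.2 CPM in the Paneth pair and 518.4 and 2621 CPM in the enteroendocrine pair, and the sum of the 20 enterocyte genes was 6911 and 15240 CPM and 2758 and 3452 CPM. Their part in the family's level was not tested.

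Bmi1-GFP cells had 27.9% of genes called higher and 22.5% lower than the stem cells. Inflammasome genes had 13 higher and 3 lower of 19, type 2 cytokine genes 7 higher and 1 lower of 11, and enterocyte genes 17 higher and 0 lower of 20 (9 higher without Lgr5-GFP-Cre replicate 1). Beside these counts, T cell markers summed to 826.4 to 2021 CPM in Bmi1-GFP cells and 18.7 to 33.7 in the stem cells, and tuft markers to 153.8 to 342.5 against 12.7 to 17.6. Their part in these counts was not tested. Gsdma, an epidermal gasdermin, stood at 46.3, 19.1 and 8.79 CPM against 0.0651 to 0.380 and rose by 6.81 (SE 1.06, adjusted p = 6.20e-05). Its libraries fell in the same order as the gasdermin C genes. The share of all genes with this order of the 3 libraries is not given here, so nothing is read from the order. Gsdmd missed the threshold (log2 difference 0.80, SE 0.35, adjusted p = 0.0616, with 0.0339 by DESeq2). Pla2g4c had 69.5, 15.3 and 6.06 CPM, in that same order, and was called higher by 5.11 (SE 1.57, adjusted p = 0.0116, and 0.0707 without Bmi1-GFP replicate 1).

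Enteroendocrine cells had 25.5% of genes higher and 20.4% lower than the stem cells, and Paneth cells 21.6% and 19.1%. Gsdma was higher in enteroendocrine cells, at 18.2 and 8.62 CPM, by 6.01 (SE 1.07, adjusted p = 0.000228). Its level was highest in the library where gasdermin C was lowest. Of the other gasdermins none was called in Paneth cells by edgeR, while 1 of 4 was higher at an unadjusted p below 0.05 (25.9% of all genes) and by DESeq2. Type 2 cytokine genes had 7 of 11 higher and 0 lower in enteroendocrine cells, with Il25, the tuft cell cytokine, higher by 7.47 (SE 1.50, adjusted p = 0.000808) and its receptor chain Il17rb by 3.98 (SE 0.81, adjusted p = 0.000699). In Paneth cells 4 of 11 were higher, among them Jak2 by 1.98 (SE 0.28, adjusted p = 3.20e-05) and Il13ra1 by 2.06 (SE 0.37, adjusted p = 0.000287). The part of tuft cells in these type 2 counts was not tested. Enterocyte genes were 0 higher and 5 lower of 20 in enteroendocrine cells (0 lower without enteroendocrine replicate 1) and 10 higher and 0 lower in Paneth cells (5 higher without Paneth replicate 2).

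The goblet sort was set against control CD274+CD69+ cells, the untreated cells of the same sort. The goblet mice had received DBZ and the controls had not, and the goblet libraries also held many reads of enterocyte markers. Cell type, treatment and the mix of cells therefore cannot be told apart in this comparison. Gsdmc2 stood at 106.2 and 136.5 CPM against 35.0 and 34.3, a fold of 3.50. Gsdmc4 stood at 91.9 and 157.2 against 64.8 and 64.0, a fold of 1.93, and Gsdmc3 at 24.0 and 26.3 against 12.0 and 12.7, a fold of 2.04. Libraries did not overlap for any of them, nor for 45.2% of all tested genes in that direction. This depended on the scaling. With plain CPM the goblet mean of the sum was 180.4 CPM in place of 271.4, and Gsdmc4 stood at 62.8 and 102.4 CPM against 68.6 and 67.8, so that its libraries overlapped, as did those of Gsdmc. Gsdmc2 and Gsdmc3 did not overlap under plain CPM, and with DESeq2 size factors none of the 4 genes did. Fitted log2 differences, scaled over the fitted libraries only, lie lower in this comparison than the CPM levels give. The calls over all genes comprised 21.8% higher and 29.5% lower. DESeq2 size factors put 54.1% of the called genes higher in place of 42.5%, and the median of all genes moved from -0.10 to 0.15.

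Here the other gasdermins were higher with the family. Gsdmd stood at 644.8 and 599 CPM against 154.5 and 161.5, Gsdma2 at 18.2 and 14.95 against 0.593 and 0.316, Dfna5 at 63.8 and 59.7 against 12.6 and 13.3 and Gsdma at 11.7 and 14.4 against 0.346 and 0.270. All 4 tested were called higher; Gsdma2 rose by 4.93 (SE 0.64, adjusted p = 4.25e-06), Dfna5 by 2.01 (SE 0.33, adjusted p = 5.03e-05) and Gsdma by 5.14 (SE 1.20, adjusted p = 0.00150). ESCRT-III genes had 11 of 13 higher and 1 lower, with Chmp4b, the filament subunit, higher by 4.63 (SE 0.25, adjusted p = 5.88e-10). Enterocyte genes had 14 of 20 and villus tip genes 9 of 9 higher, and villus base genes 5 of 8 lower. Type 2 response genes had 7 of 10 higher, or 5 of 8 without the mast cell proteases Mcpt1 (34.8 ± 43.0 CPM) and Mcpt2 (17.7 ± 20.6). Among these 5 were Clca3 (40560 ± 19130 against 922.3 ± 54.2 CPM) and Ang4 (9280 ± 3256 against 977.4 ± 118.4), products of goblet and Paneth cells. The part of cell type in this count was not tested. Pla2g4c stood at 2861 and 3339 CPM, a rise of 9.18 (SE 2.08, edgeR adjusted p = 0.00122). Inflammasome genes had 8 higher and 4 lower of 19. The adaptor Pycard fell by 4.50 (SE 0.37, adjusted p = 3.49e-08) and the sensor Nlrp6 by 2.67 (SE 0.25, adjusted p = 1.07e-07). Caspases had 2 higher and 4 lower of 10, Casp8 by 1.26 upward and Casp1, which cuts Gsdmd, by -1.49.

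**Figure D4:**
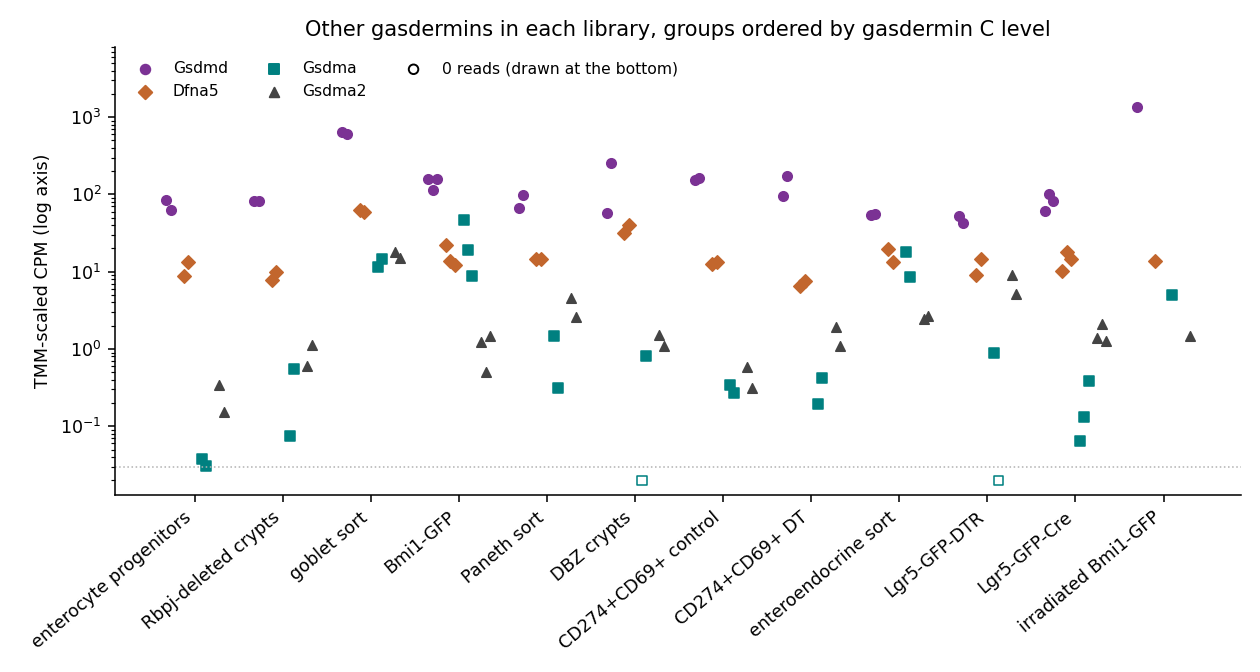
TMM-scaled CPM (log axis) of Gsdmd, Dfna5, Gsdma and Gsdma2, one point per library, with the groups in the order of their gasdermin C level and libraries at 0 reads as open symbols at the bottom. Gsdmd is highest in the irradiated library (1362 CPM) and the goblet sort (644.8 and 599 CPM), and stands at 84.8 and 62.1 CPM in the enterocyte progenitors, where gasdermin C is highest.

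Diphtheria toxin was given to mice labelled wild type, and CD274+CD69+ cells of these mice stood at 24.3 and 141.9 CPM of summed gasdermin C against 112.1 and 111 CPM in untreated mice. For the sum, Gsdmc2 and Gsdmc4 the treated libraries lay on both sides of the control pair. Gsdmc, with 2 to 6 reads in each library, stood at 0.118 and 0.282 CPM, between the controls at 0.0901 and 0.297. Gsdmc3 lay below both controls, at 1.38 and 9.35 CPM against 12.0 and 12.7, and 28.6% of tested genes had libraries that did not overlap in that direction. In this comparison 11 genes (0.0741%) were called higher and 15 (0.101%) lower, and no gene of any of the 10 lists was called by edgeR. At an unadjusted p below 0.05, which 2.39% of all genes passed higher and 3.62% lower, 6 of 20 enterocyte genes and 2 of 9 villus tip genes were lower, 2 of 8 villus base genes were higher, 1 of 4 other gasdermins was higher and 1 lower, 1 type 2 response gene was higher and 1 inflammasome gene lower. DESeq2 called 1 villus base gene and 1 type 2 response gene higher.

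After irradiation, the Bmi1-GFP library had 6 reads of Gsdmc4, or 0.370 CPM, and 0 reads of Gsdmc, Gsdmc2 and Gsdmc3. Against the mean of the 3 unirradiated Bmi1-GFP libraries the summed family was 462-fold lower (212 to 1260, from the 95% Poisson interval of the 6 reads, counting error only), and 243.9-fold lower without Bmi1-GFP replicate 1. Gsdmc4 was 279.5-fold lower (128.4 to 761.7), and against the limit of 3 reads that 0 allows Gsdmc2 was at least 278.6-fold and Gsdmc3 at least 84.0-fold lower. The lowest unirradiated library had a summed level of 50.4 CPM. With 1 irradiated library there is no replicate and no test, and 12.9% of all tested genes lay above and 17.4% below the range of the 3 unirradiated libraries by more than 1 on the log2 scale. The TMM factor was 0.642 in the irradiated library and 1.12 to 1.25 in the unirradiated ones. Compared with plain CPM, this raises the irradiated levels against the others. Counts of genes above or below the range are given with TMM only.

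Genes named next were chosen after their values were seen. All 20 enterocyte genes lay above that range, with a median difference of 3.31 against -0.10 for all genes, so the irradiated library combined the lowest gasdermin C level with an enterocyte sum of 148500 CPM, in the range of the goblet libraries (160800 and 144500 CPM). Gsdmd had 1362 CPM against 158.9, 114.6 and 160.5, 9.41-fold higher than the mean. Caspases lay above that range for 3 and below for 1 of 10, and inflammasome and alarmin genes above for 7 and below for 3 of 19. Casp8 was 3.71-fold higher, and the alarmins Il18 and Il33 were 7.45-fold and 23.9-fold higher. ESCRT-III genes were above the range for 6 and below for 0 of 13. Pla2g4c had 1.23 CPM, below its range of 6.06 to 69.5 CPM, and type 2 response genes, the mast cell proteases included, lay above for 1 and below for 3 of 10. Type 2 cytokine genes lay above for 3 (Il4ra, Il13ra1 and Jak2, the last at 253.8 CPM) and below for 4 of 11 (Il2rg, Il17rb, Il25 and Tslp). Tuft markers summed to 82.2 CPM against 153.8 to 342.5, and T cell markers to 244 against 826.4 to 2021 CPM.

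**Figure D5:**
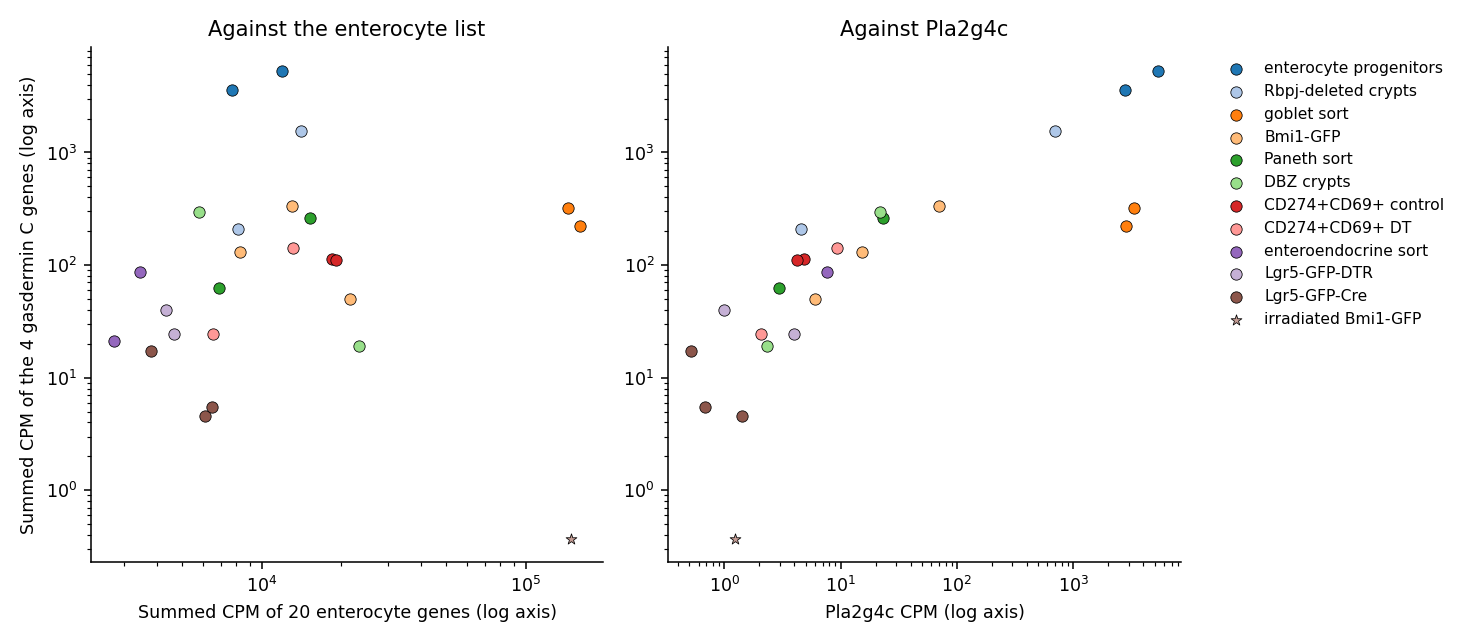
Summed TMM-scaled CPM of the 4 gasdermin C genes (vertical, log axis) in each library against the summed CPM of 20 enterocyte genes (left, log axis) and against Pla2g4c (right, log axis), colored by group. The irradiated library (star) has 148500 CPM of enterocyte genes and 0.370 CPM of gasdermin C; Pla2g4c is 5308 and 2808 CPM in the enterocyte progenitors and 1.23 CPM in the irradiated library.

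Across libraries, the gasdermin C sum was set beside these gene sums as a description. In the 9 groups of 2 libraries, Pla2g4c was highest in the same library as the family in 8, with Lgr5-GFP-DTR as the exception, and the other 9 type 2 response genes in 3 to 6. Of 14833 single genes, 38 (0.256%) matched the family in 9 of 9 groups, 362 (2.44%) in 8 and 1250 (8.43%) in 7. Sums over the 10 lists matched in 4 to 9 of 9 groups. That of the absorptive transcription factors matched in 9, those of caspases and ESCRT-III genes in 7 and that of enterocyte genes in 5. Among the sums of cell type markers, that of tuft cells matched in 7, the most of any. It is the highest of several sums, so nothing is read from its place. The sum of mast cell markers matched in 6 and those of the other cell types in 2 to 5. Among 9475 genes averaging at least 20 CPM in 1 group or more, Capn13, a calpain protease, had the pattern most like that of the family over the 12 group means (Pearson r = 0.92 on log2 CPM). It stood at 309.4 ± 169.4 CPM in the enterocyte progenitors, 145.1 ± 41.6 in the goblet sort, 17.8 to 72.9 in the means of the other unirradiated groups and 4.50 CPM in the irradiated library. Scd2 (0.88), Car4 (0.88), Smarcad1 (0.85), Zkscan8 (0.84), Cenpc1 (0.83), Fam179b (0.81), Syk (0.80) and Cbfb (0.80) were also among the first 10. The irradiated library weighed heavily on this order: without it, Capn13 alone of the 10 stayed among the first 10 (rank 2, r = 0.86) and the others ranked down to 586. The lowest values were those of Kptn (-0.88), Aprt (-0.88), Dgcr6 (-0.85), Phgr1 (-0.85) and Cox7b (-0.84).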

How the data were processed

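Per the labels' protocols, RNA of 25 libraries was sequenced as 75 bp single-end reads, with the TruSeq kit for 3 libraries (both Rbpj-deleted crypts and control CD274+CD69+ replicate 1) and SMART-Seq v4 for the rest. The authors deposited whole-number read counts per gene. Bowtie2, TopHat2 2.0.6, DESeq2 and genome build mm10 are named in the submitters' processing notes. For the counter, strand setting and treatment of multi-mapped reads the answer is not given in the sources used here. Genes were filtered with filterByExpr (minimum count 10, total 15), scaled by TMM and fitted in one edgeR 4.0.16 quasi-likelihood model (R 4.3.3) over 24 libraries of 11 groups, the lone irradiated library left out, with Benjamini-Hochberg adjustment over 14837 genes. Log2 differences of tested genes are the fitted ones, with TMM factors of the 24 fitted libraries. CPM levels and their folds use TMM factors of all 25 libraries, so they can differ from the fitted differences, most visibly in the goblet comparison. The sign ± gives the SD between libraries, and p-values measure the spread between replicates that the labels call biological. Test code was checked on simulated data. DESeq2 1.42.0, other scalings, filters, sample sets and a replicate block were alternatives. The members, lists and tests were chosen with earlier results of these data known. Of each list and comparison, up to 3 called genes of lowest adjusted p and the most expressed gene not called could be named; Gsdmd in the goblet sort, Pla2g4c in the DBZ crypts and genes of the irradiated library were named after their values were seen. The table lists Gsdme and Pjvk under the older symbols Dfna5 and Dfnb59 and Wars1 as Wars. Sprr2a3 and Adgre1 were not matched by symbol. Coordinates and the promoter come from RefSeq tables of GRCm38.p6 (mm10). Some genes that the rule would name are not reported here.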

Additional observations from a re-analysis of the deposited data

How the results depend on the processing

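The enterocyte progenitors stood highest and the irradiated library lowest under TMM, DESeq2 size factors and plain CPM. The mean family sum of control CD274+CD69+ cells was 108.2 CPM with DESeq2 size factors and 118.2 with plain CPM, and that of the goblet sort 180.4 with plain CPM, which put its log2 fold over the controls at 0.61 in place of 1.28. The log2 fold of the family sum in DBZ crypts against enterocyte progenitors ranged from -7.89 (without DBZ replicate 1) to -3.91 (without DBZ replicate 2) as each library was left out. Fitted with a low and a high prior count, the folds of the 8 comparisons kept their direction. The goblet sort stood at 1.04 with both, below the 1.28 of its CPM means. Against the control pair, the diphtheria toxin group stood at -0.42, at 0.35 without its replicate 1 and at -2.20 without its replicate 2, so its direction rests on one library. Counts of called genes ranged from 2845 (without enterocyte progenitor replicate 1) to 5841 for enterocyte progenitors against Lgr5-GFP-Cre cells, from 141 to 442 for DBZ crypts, from 2146 to 2937 for Rbpj-deleted crypts and from 9 to 16 for diphtheria toxin as each library was left out. Those that moved a count by over 1.5 times were enterocyte progenitor replicate 1 for the comparison with Lgr5-GFP-Cre cells, enterocyte progenitor replicates 1 and 2 and DBZ replicate 2 for the DBZ crypts, enterocyte progenitor replicate 2 and Rbpj-deleted replicate 2 for the Rbpj-deleted crypts, and each of the 4 libraries for diphtheria toxin. With DESeq2 the DBZ comparison had 656 and the diphtheria toxin comparison 127 called genes. The diphtheria toxin comparison also had 56 with no filter, 425 when its 4 libraries were fitted alone and 8 without the TruSeq libraries, and the Paneth comparison had 3848 when fitted alone; the causes were not tested.

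Correlations between the deviations of same-numbered libraries ranged from -0.208 to 0.134. Bmi1-GFP against Lgr5-GFP-Cre cells, with 3 libraries in each group, had -0.0654, 0.00700 and 0.0496. The enteroendocrine comparison had 0.112 and 0.132, and the diphtheria toxin comparison 0.134. With 2 libraries in each group the second value only repeats the first, so these correlations cannot decide whether libraries were paired. With the replicate number as a block, 5459, 356, 4058, 7487, 27, 7280, 6190 and 5587 genes were called in the comparisons of enterocyte progenitors, DBZ, Rbpj-deleted, goblet, diphtheria toxin, Bmi1-GFP, enteroendocrine and Paneth cells, each within 1.5 times the count without the block. With crossed numbers the Rbpj comparison had 3923. Of 172 calls open to naming by the rule, 136 held in every alternative and 36 were lost in at least 1, while 29 of 86 genes that were not called were called in at least 1. A comparison of Rbpj-deleted crypts with enterocyte progenitors within one library kit was not run, since each group was made with a single kit. Gsdmc held 0 or 1 read in the Lgr5-GFP-Cre libraries, and the family 6 reads in the irradiated one, so depth sets a limit to their folds.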
